A study of Mus musculus with 12 samples.

Results

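Tifab and 9 genes of the Toll-like receptor (TLR) and TRAF6 pathway, Tifa, Traf6, Myd88, Irak1, Irak4, Tlr2, Tlr4, Tlr7 and Tlr9, were followed in lymphoid progenitors of mouse bone marrow (BM). These 10 genes were chosen by name from the 32285 genes of the count table, and all 10 passed the filter on low counts, which left 13367 genes for testing. Tifab was included because it was 1 of the 10 genes called between the ages in Ly6d- CLPs, so its difference between the ages is given as a description with no test. The other 9 genes were added for their place in the pathway.

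The libraries were made from 2 progenitor populations sorted from the BM of wild-type C57BL6/J mice aged 1 month (1MO) or 3 months (3MO), with no treatment. Ly6d- CLPs are common lymphoid progenitors sorted as negative for the B-lineage surface marker Ly6d, and Flk2+ MPPs are multipotent progenitors that lie upstream of them. Each of the 4 groups, 1MO CLP, 3MO CLP, 1MO MPP and 3MO MPP, had 3 libraries. The study describes independent experiments and gives the number of cells sorted from each mouse for both populations, without stating how many mice entered a library or whether a CLP and an MPP library came from the same mouse. Estimated counts summed to between 8889083 and 20677785 in a library.

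Toll-like receptors bind molecules of microbes at the cell surface, as TLR2 and TLR4 do, or nucleic acids within endosomes, as TLR7 and TLR9 do. Through the adaptor MYD88 and the kinases IRAK4 and IRAK1 they engage TRAF6, a ubiquitin ligase that starts signaling to NF-kB. TIFA binds TRAF6 and promotes its activation, and TIFAB, a related protein with a forkhead-associated domain, binds TIFA and limits TRAF6 signaling. Hematopoietic progenitors carry TLRs, and signaling through them is known to alter myeloid and lymphoid output.

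The labels fitted Il7r and Kit, markers of the sorted cells, while some other sort markers did not separate the populations in that way. Il7r, the interleukin 7 receptor gene that defines CLPs, stood at 371 ± 37.6 CPM (counts scaled to a common library size after TMM normalization, mean ± SD, n = 3) in 1MO CLP and 340 ± 35.4 CPM in 3MO CLP, against 10.4 ± 7.14 and 10.4 ± 2.53 CPM in MPPs of the same ages. Kit, the stem cell factor receptor gene that is low in CLPs, stood at 296 ± 72.5 and 242 ± 23.0 CPM in CLPs and at 737 ± 62.8 and 758 ± 34.4 CPM in MPPs. Of 7 markers of the CLP sort, 6 had an adjusted p under 0.05 from edgeR between the cell types, 5 higher and 1, Kit, lower in CLPs. Ly6d RNA was among these 5, at 5.3 ± 2.6 and 3.3 ± 2.3 CPM in CLPs and 0.95 ± 1.15 and 0.12 ± 0.15 CPM in MPPs. Of 7 markers of the MPP sort, 4 did, each lower in CLPs, while Flt3, Cd48 and Slamf1 did not. Markers of other cell types were also detected. The summed level of 5 stromal markers was 204 to 576 CPM in the 1MO CLP libraries, 0 to 7.99 CPM in 3MO CLP, 11.0 to 78.3 CPM in 1MO MPP and 5.39 to 14.1 CPM in 3MO MPP. Erythroid markers ranged from 5.60 to 91.1 CPM and megakaryocyte markers from 9.01 to 36.7 CPM over the 12 libraries, with ranges that overlapped between the ages. Neutrophil markers summed to 836 to 1321 CPM in CLPs and 596 to 957 CPM in MPPs. Mpo made up most of this sum, at 921 ± 191 and 815 ± 115 CPM in CLPs and 604 ± 66.2 and 612 ± 112 CPM in MPPs. Elane and Mpo were higher and Prtn3 lower in CLPs at an adjusted p under 0.05 from edgeR. T and NK markers summed to 2.99 to 7.17 CPM in CLPs and 6.98 to 20.4 CPM in MPPs. Most of that was Cd4, while Cd3e, Cd3g, Cd8a and Ncr1 did not pass the filter on low counts.

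Promoter sequences of RefSeq on GRCm38.p6, read from 250 bases before to 50 after a transcript start, were found for 8 of the 10 genes, with no entry for Tlr4 and Tlr7. Each was searched on both strands for GAGGAA, a core shared by ETS-family sites such as that of PU.1, for TGANTCA, the AP-1 site, for the interferon-stimulated response element (ISRE), and for the NF-kB site. These motifs were chosen after earlier results were known. Tifab lies on the reverse strand of chromosome 13 from 56173704 to 56178885, and its 250 bases upstream, at chr13:56178886-56179135, are shown because its level varied most among the groups. Tlr9 lies on the forward strand of chromosome 9 from 106222598 to 106226883, and its upstream bases at chr9:106222348-106222597 are shown because it was higher in CLPs, as Tifab was. Capitals mark matches to GAGGAA and TGANTCA.
Tifab: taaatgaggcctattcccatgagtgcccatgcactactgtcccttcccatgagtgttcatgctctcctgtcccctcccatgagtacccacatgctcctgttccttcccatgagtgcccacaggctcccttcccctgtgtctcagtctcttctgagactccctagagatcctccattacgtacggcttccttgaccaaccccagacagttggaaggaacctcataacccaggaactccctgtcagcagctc
Tlr9: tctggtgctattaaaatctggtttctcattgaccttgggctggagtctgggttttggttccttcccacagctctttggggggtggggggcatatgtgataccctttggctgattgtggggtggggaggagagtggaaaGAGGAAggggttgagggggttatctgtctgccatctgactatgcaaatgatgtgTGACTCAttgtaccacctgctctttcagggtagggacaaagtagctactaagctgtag
The Tifab window held no match to any of the 4 motifs. The Tlr9 window held GAGGAA and TGANTCA, which occur in 28.3% and 7.81% of 32851 RefSeq promoters of the same length. GAGGAA also had 2 matches in the window of Traf6 and 2 in that of the second listed start of Tifa, and Tlr9 had another 13 bases after its start. The ISRE, present in 3.44% of the promoters, had 1 match, in the window of Myd88.

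NF-kB sites, present in 8.46% of the same promoters, were found in windows of Tifa, Irak1 and Tlr2 and in none of the windows of Tifab, Traf6, Myd88, Irak4 and Tlr9. The matches of Tifa, on the forward strand at chr3:127790677-127790706, and of Tlr2, on the reverse strand at chr3:83841761-83841790, are shown in capitals within 30 bases, since one gene differed between the cell types and the other was not called.
Tifa: gtcgttgtgatccGGGATTTTCCaattttc
Tlr2: aggacacctgGGGAATTCCCacacggagcc
The match of Tifa lay 34 bases after its second listed start. The Tlr2 match shown began 172 bases before the start and overlapped another that began 1 base earlier. A separate match of Tlr2, not shown, began 8 bases before the start.

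Tifab was highest in 1MO CLP and fell in the order 1MO CLP, 3MO CLP, 1MO MPP and 3MO MPP. It stood at 186, 178 and 217 CPM in the 3 libraries of 1MO CLP and at 55.3, 103 and 62.7 CPM in those of 3MO CLP. In MPPs it stood at 39.5, 34.4 and 34.4 CPM at 1MO and at 23.2, 21.5 and 22.6 CPM at 3MO. No library of a group overlapped with a library of the next group in this order, and the second replicate of 3MO CLP was the highest of its group.

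The group means of Tifab were 194 ± 20.8 and 73.8 ± 25.9 CPM in CLPs at 1MO and 3MO, and 36.1 ± 2.93 and 22.4 ± 0.837 CPM in MPPs (SD, n = 3). The log2 fold change of Tifab at 3MO relative to 1MO was -1.39 (standard error, SE, 0.22) in CLPs and -0.69 (SE 0.22) in MPPs. The difference between these values was -0.70 (SE 0.30), given as a description like the rest. With 1 CLP library left out, the age difference in CLPs ran from -1.71, without the second replicate of 3MO CLP, to -1.23, without the first. Beside it, markers of the B lineage summed to 83.0 to 118 CPM in 1MO CLP and 39.4 to 61.8 CPM in 3MO CLP, and the stromal markers given above were also higher in 1MO CLP. Dendritic markers summed to 172 to 188 CPM in 1MO CLP and 147 to 170 CPM in 3MO CLP, which also did not overlap. The part of these cells in the Tifab values was not tested. In sorted bulk samples, fewer cells of a type and less RNA per cell cannot be told apart.

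**Figure D1:**
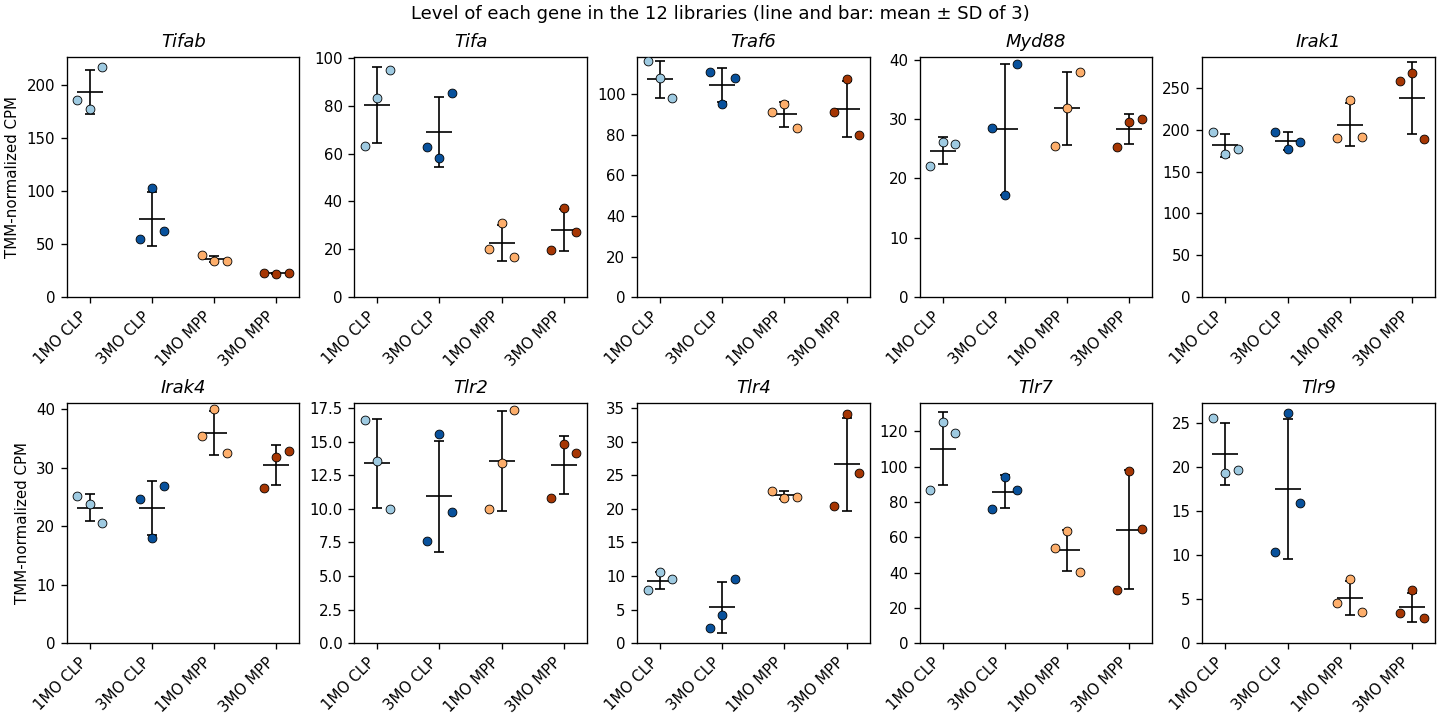
Level of Tifab and the 9 pathway genes in each library, as CPM after TMM normalization on a linear axis from 0, with 1 point per library and the mean ± SD of 3 libraries for each group. The 4 groups of Tifab do not overlap, Tifa and Tlr9 are higher and Tlr4 lower in all 6 CLP libraries than in all 6 MPP libraries, and Traf6, Myd88, Irak1 and Tlr2 overlap between the cell types.

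The comparison of Ly6d- CLPs with Flk2+ MPPs over both ages asked where in this part of development the genes are expressed. It shares the CLP libraries with the age difference that chose Tifab, so the result for Tifab is not independent of that choice. The other genes were added for their place in the pathway, with earlier results of these data known. Of the 10 genes, 5 were called, which here means a Benjamini-Hochberg adjusted p below 0.05 by the quasi-likelihood test of edgeR, with Tifab, Tifa, Tlr7 and Tlr9 higher and Tlr4 lower in CLPs. Of all genes tested, 13.3% were called, 5.95% higher and 7.30% lower in CLPs. The median log2 fold change was 0.03 over the 10 genes and -0.03 over all genes.

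Tifab, the inhibitor, was 4.21-fold higher in CLPs, with a log2 fold change of 2.07 (SE 0.16, adjusted p = 3.34e-07 from edgeR). All 6 CLP libraries, from 55.3 to 217 CPM, lay above all 6 MPP libraries, from 21.5 to 39.5 CPM. Its difference between the cell types was 2.42 on the log2 scale at 1MO and 1.72 at 3MO, given without a test.

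Tifa, the TRAF6 activator that TIFAB binds, lies on chromosome 3 from 127789805 to 127832164. It stood at 63.2, 83.1 and 94.7 CPM in 1MO CLP and at 62.8, 58.2 and 85.5 CPM in 3MO CLP. In MPPs it stood at 20.1, 31.1 and 16.9 CPM at 1MO and at 19.9, 37.4 and 27.3 CPM at 3MO. The CLP and MPP libraries did not overlap, while the ages did in both cell types. Tifa was 2.94-fold higher in CLPs over both ages, with a log2 fold change of 1.56 (SE 0.20, adjusted p = 7.15e-05 from edgeR). It was also called within each age, at 1.83 at 1MO (adjusted p = 0.000966 from edgeR) and 1.28 at 3MO (adjusted p = 0.0133 from edgeR). Without the third replicate of 3MO CLP, the value at 3MO was 1.10 with an adjusted p of 0.0627 from edgeR.

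Among the receptors, Tlr9, which senses DNA with unmethylated CpG, had 25.6, 19.3 and 19.7 CPM in 1MO CLP and 10.4, 26.1 and 15.9 CPM in 3MO CLP. In MPPs it had 4.58, 7.24 and 3.50 CPM at 1MO and 3.38, 5.97 and 2.91 CPM at 3MO. Every CLP library was above every MPP library. Tlr9 was 4.25-fold higher in CLPs, with a log2 fold change of 2.09 (SE 0.31, adjusted p = 0.000235 from edgeR). The difference was 2.08 at 1MO (adjusted p = 0.00832 from edgeR) and 2.09 at 3MO (adjusted p = 0.00886 from edgeR). Without the third replicate of 1MO MPP, the log2 fold change at 1MO was 1.87 with an adjusted p of 0.0521 from edgeR.

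Tlr7, an endosomal receptor for single-stranded RNA on chromosome X from 167304929 to 167330558, had 86.5, 125 and 119 CPM in 1MO CLP and 75.9, 94.4 and 86.8 CPM in 3MO CLP. In MPPs it had 53.8, 63.7 and 40.4 CPM at 1MO and 30.2, 97.7 and 64.9 CPM at 3MO. The second replicate of 3MO MPP lay within the range of the CLP libraries. Tlr7 was 1.67-fold higher in CLPs over both ages, with a log2 fold change of 0.74 (SE 0.22, adjusted p = 0.0374 from edgeR). This call was lost in 7 of the 12 fits that left out 1 library, with a log2 fold change of 0.66 to 0.75 and an adjusted p of 0.0626 to 0.0977 from edgeR. The libraries whose absence ended the call were the second and the third replicate of 1MO CLP, the first and the third of 1MO MPP, the second and the third of 3MO CLP and the third of 3MO MPP. Within an age Tlr7 was not called in the reported edgeR fit, at 1.07 at 1MO (adjusted p = 0.0649 from edgeR) and 0.41 at 3MO (adjusted p = 0.55 from edgeR). Fits with replicate blocks, which differed at 1MO, are given with the other alternatives at the end. At 1MO it was called by DESeq2 (adjusted p = 0.0164) and by edgeR with no filter on low counts (adjusted p = 0.00197), without the first replicate of 3MO MPP (adjusted p = 0.00653) or without the second (adjusted p = 0.0322).

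Tlr4, the receptor for lipopolysaccharide on chromosome 4 from 66827584 to 66930284, had the opposite direction. It stood at 7.92, 10.5 and 9.52 CPM in 1MO CLP and at 2.22, 4.20 and 9.57 CPM in 3MO CLP. In MPPs it stood at 22.7, 21.6 and 21.7 CPM at 1MO and at 20.4, 34.1 and 25.3 CPM at 3MO. The lowest MPP library was above the highest CLP library. Tlr4 was 3.42-fold lower in CLPs, with a log2 fold change of -1.77 (SE 0.30, adjusted p = 0.000696 from edgeR). The difference was -2.31 at 3MO (adjusted p = 0.00373 from edgeR) and -1.24 at 1MO, where it was not called (adjusted p = 0.11 from edgeR). Without the third replicate of 3MO CLP, Tlr4 was called at 1MO, at -1.24 (adjusted p = 0.0365 from edgeR).

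Tlr2, which senses bacterial lipoproteins and lies on chromosome 3 from 83836272 to 83841767, ranged from 7.57 to 16.6 CPM in CLPs and from 9.97 to 17.4 CPM in MPPs, with ranges that overlapped. Its log2 fold change was -0.15, with 2 standard errors spanning -0.66 to 0.36 (adjusted p = 0.797 from edgeR).

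Markers of other cells stood beside these receptor values. The summed level of 7 dendritic cell markers was 147 to 188 CPM in CLPs and 45.9 to 75.9 CPM in MPPs, and Siglech, a marker of plasmacytoid dendritic cells, was at 69.3 ± 6.83 and 55.8 ± 6.07 CPM in CLPs and at 3.09 ± 1.43 and 3.19 ± 2.77 CPM in MPPs of 1MO and 3MO. Of the markers of type 1 conventional dendritic cells, Xcr1 was at 0 in all 12 libraries, while Clec9a was at 2.19 ± 1.91 and 6.71 ± 4.83 CPM in CLPs and at 0.458 ± 0.495 and 1.99 ± 2.52 CPM in MPPs of 1MO and 3MO (SD, n = 3). Of the 7 dendritic markers, 5 were tested and 2 were called, both higher in CLPs, Siglech and Itgax. Monocyte and macrophage markers summed to 262 to 454 CPM in CLPs and 210 to 362 CPM in MPPs, and B-lineage markers to 39.4 to 118 CPM and 8.99 to 20.8 CPM. Of the 8 monocyte and macrophage markers, 4 were called by edgeR, Csf1r, Cx3cr1, Ly6c2 and Ms4a6c, each higher in CLPs. Itgam, Lyz2 and Cd68 were lower in CLPs, at -0.47, -0.34 and -0.12 on the log2 scale, and Adgre1 was higher at 0.42. None of the last 4 was called. Of the 6 B-lineage markers tested 2 were called, Ebf1 and Pax5, both higher in CLPs. Their part in the levels of Tifab, Tifa, Tlr7, Tlr9 and Tlr4 was not tested.

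The adaptor Myd88, the ligase Traf6 and the kinases Irak1 and Irak4 are shared by these receptors, and edgeR called none of these 4 genes between the cell types over both ages. Traf6 ranged from 95.1 to 116 CPM in CLPs and from 80.1 to 108 CPM in MPPs, a log2 fold change of 0.21 with 2 standard errors spanning -0.02 to 0.44 (adjusted p = 0.286 from edgeR). Myd88 ranged from 17.2 to 39.3 CPM in CLPs and from 25.4 to 38.0 CPM in MPPs, a log2 fold change of -0.18 with 2 standard errors spanning -0.59 to 0.22 (adjusted p = 0.655 from edgeR). The ranges of both genes overlapped between the cell types.

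Irak1, the kinase that carries the signal from the receptor complex to TRAF6, ranged from 171 to 197 CPM in CLPs and from 189 to 268 CPM in MPPs, a log2 fold change of -0.27 with 2 standard errors spanning -0.50 to -0.03 (adjusted p = 0.164 from edgeR). Irak4, the kinase that acts before it, had 25.1, 23.8 and 20.6 CPM in 1MO CLP and 24.6, 18.0 and 26.8 CPM in 3MO CLP. In MPPs it had 35.4, 40.0 and 32.5 CPM at 1MO and 26.5, 31.9 and 32.9 CPM at 3MO. Only the first replicate of 3MO MPP lay within the CLP range. The log2 fold change of Irak4 was -0.52 (SE 0.17, adjusted p = 0.0515 from edgeR), and it was called by DESeq2 (adjusted p = 0.0149) and without the first replicate of 3MO MPP (adjusted p = 0.0374 from edgeR).

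Within an age, counted over the 9 genes other than Tifab, 2 were called at 1MO, Tifa and Tlr9, where 5.38% of all genes were called. At 3MO, 3 were called, Tifa, Tlr9 and Tlr4, where 6.07% of all genes were called. At 1MO, DESeq2 called 4 genes, with Tlr7 (adjusted p = 0.0164) and Tlr4 (adjusted p = 0.0413) in addition, and it also called more of all genes there, 1230 against the 719 of edgeR. The difference between the ages in these effects is the interaction, given below.

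**Figure D2:**
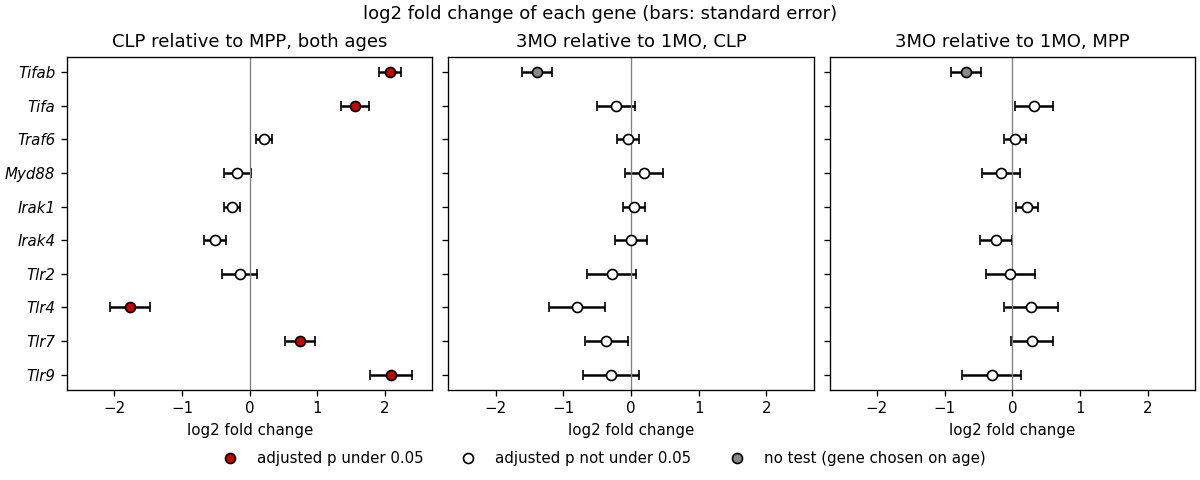
Log2 fold change with its standard error for each gene in 3 comparisons, CLP relative to MPP over both ages, 3MO relative to 1MO in CLP and 3MO relative to 1MO in MPP. Red points passed an adjusted p of 0.05, open points did not, and grey points of Tifab have no test, and the genes other than Tifab lie between -0.80 and 0.32 in both age comparisons.

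The comparison of 3MO with 1MO addressed whether the pathway changed with age in each population. None of the 9 genes other than Tifab was called in Ly6d- CLPs by edgeR or by DESeq2, and 0 had an unadjusted p under 0.05, where 0.0748% of all genes were called. None was called in Flk2+ MPPs by edgeR or by DESeq2, again with 0 at an unadjusted p under 0.05, where 0.0224% of all genes were called. With so few genes called in all, these counts are near the background.

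In CLPs, the log2 fold changes of the 9 genes ran from -0.80 (SE 0.42, adjusted p = 0.891 from edgeR) for Tlr4 to 0.19 (SE 0.28) for Myd88, with a median of -0.22 against -0.01 over all genes. Tlr7 stood at -0.36, Tlr9 at -0.30, Tlr2 at -0.28 and Tifa at -0.22 in this comparison, each with 2 standard errors that spanned 0, and with 1 CLP library left out Tlr9 ran from -0.71 to -0.04, Tlr2 from -0.63 to -0.08 and Tifa from -0.41 to -0.09. For Tifa the span was -0.78 to 0.33. Traf6, Irak1 and Irak4 lay at -0.04, 0.04 and 0.00, within 0.47 of 0 at 2 standard errors. The third replicate of 3MO CLP had 9.57 CPM of Tlr4, within the range of 1MO CLP, and the difference of Tlr4 was -1.52 without it (adjusted p = 0.334 from edgeR), -0.45 without the first replicate of 3MO CLP (adjusted p = 0.984 from edgeR) and -0.65 without the second (adjusted p = 0.852 from edgeR).

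In MPPs, the log2 fold changes ran from -0.31 for Tlr9 to 0.32 for Tifa, with a median of 0.05 against -0.01 over all genes. With 1 MPP library left out, that of Tlr9 ran from -0.69 to 0.02 and that of Tifa from 0.06 to 0.61. Tlr7 ranged from 30.2 to 97.7 CPM among the 3MO MPP libraries. The interaction term of age with cell type was called in 0 of the 9 genes by edgeR and by DESeq2, with 0 at an unadjusted p under 0.05, where 0% of all genes were called (429 at an unadjusted p under 0.05, and 7 by DESeq2). The largest interaction among the 9 was that of Tlr4, at -1.08 with 2 standard errors spanning -2.24 to 0.08.

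Levels were compared between genes as CPM per kilobase of exon, since longer genes collect more counts. Averaged over the groups, Irak1 was highest, followed by Tifab, Tlr7, Tifa, Traf6, Myd88, Irak4, Tlr2, Tlr9 and Tlr4. This order was not that of every group. In MPPs of 1MO and 3MO, Tifa (7.09 and 8.81 CPM per kb) was below Traf6 (11.4 and 11.8) and Myd88 (12.4 and 11.0), and Tlr4 (3.96 and 4.79) was above Tlr9 (1.47 and 1.18). In 1MO CLP, Tifab was the first of the 10, at 55.4 ± 5.95 CPM per kb against 38.5 ± 2.90 for Irak1 (SD, n = 3). In 3MO MPP, Tifab stood at 6.41 ± 0.239 CPM per kb, near Irak4 at 6.06 ± 0.679 and below Irak1 at 50.5 ± 9.13.

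**Figure D3:**
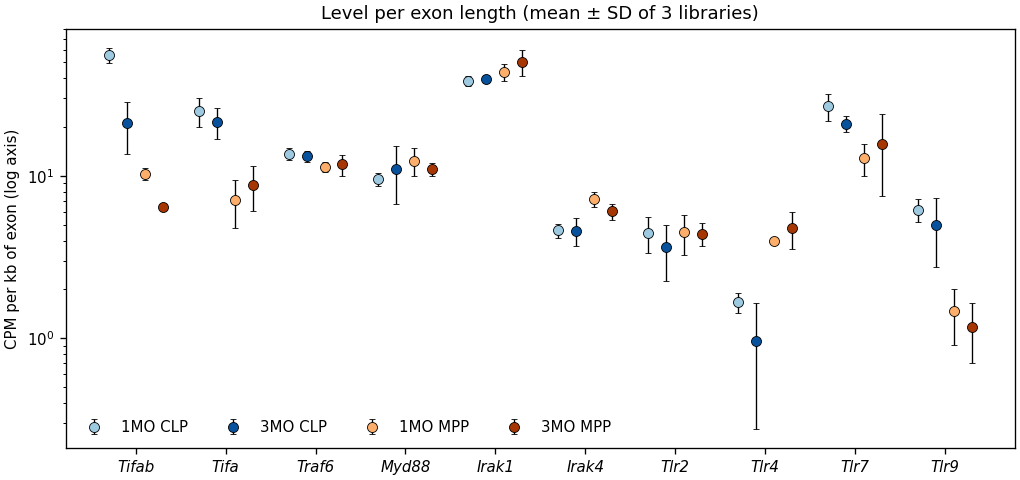
Mean level per exon length of each gene in the 4 groups, as CPM per kilobase on a log axis, with the SD of 3 libraries. Irak1 lies between 38.5 and 50.5 CPM per kb in every group, Tifab spans 6.41 to 55.4, and Tlr4 in CLPs and Tlr9 in MPPs lie below 2.

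The makeup of the receptors also differed by cell type as a description. Of the summed per-length level of Tlr2, Tlr4, Tlr7 and Tlr9, Tlr7 made up 68.3% ± 7.45 in 1MO CLP and 69.4% ± 6.31 in 3MO CLP, and 56.1% ± 6.92 and 57.9% ± 9.34 in MPPs. Tlr9 made up 12.2% to 20.7% in the CLP libraries and 3.22% to 8.01% in the MPP libraries. Tlr4 made up 1.63% to 5.59% in the CLP libraries and 15.0% to 23.5% in the MPP libraries, so the cell types did not overlap for either share.

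The ratio of Tifab to Tifa, inhibitor to activator, was taken per exon length in each library. It was 2.69, 1.96 and 2.10 in 1MO CLP and 0.806, 1.62 and 0.671 in 3MO CLP. The MPP libraries gave 1.80, 1.01 and 1.87 at 1MO, and those of 3MO gave 1.07, 0.526 and 0.758. The ages did not overlap in CLPs and overlapped in MPPs, and since Tifab was chosen on its age difference the ratio carries no test. It was taken from RNA and says nothing of the proteins.

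**Figure D4:**
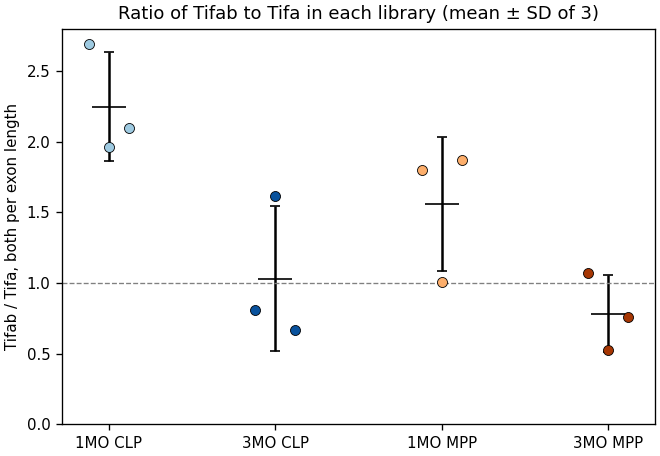
Ratio of Tifab to Tifa, both per exon length, in each library, with 1 point per library, the mean ± SD of 3 for each group and a dashed line at equal levels. The 1MO CLP libraries lie at 1.96 to 2.69, and 3MO CLP at 0.671 to 1.62.

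Beyond the 10 genes, 109 genes of the pathway were grouped in 10 lists, and 97 passed the filter. In CLPs against MPPs over both ages, 20 of the 97 were called by edgeR, 11 higher and 9 lower in CLPs, which is 20.6% against the 13.3% of all genes. Their median log2 fold change was -0.06, against -0.03 over all genes. None of the 97 was called by edgeR for age in CLPs (7 at an unadjusted p under 0.05, and 1, Tnip3, by DESeq2), for age in MPPs (2 at an unadjusted p under 0.05, and 0 by DESeq2) or for the interaction (2 at an unadjusted p under 0.05, and 0 by DESeq2).

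Co-receptors and proteins that traffic TLRs had the most calls, 5 of 10 tested, of which 4 were higher in CLPs. This count and those of the lists below stand beside 13.3% of all genes called, and no list was tested as a set. Ly86, which encodes MD-1, the partner of the TLR-like receptor CD180, stood at 41.6 ± 13.0 and 35.2 ± 6.89 CPM in CLPs of 1MO and 3MO and at 3.56 ± 0.533 and 4.41 ± 2.08 CPM in MPPs (log2 fold change 3.27, adjusted p = 1.08e-06 from edgeR). Unc93b1, the chaperone that carries TLR7 and TLR9 to endosomes, stood at 205 ± 9.60 and 205 ± 12.7 CPM in CLPs and at 93.3 ± 33.5 and 89.3 ± 9.50 CPM in MPPs (log2 fold change 1.17, adjusted p = 5.80e-05 from edgeR). Lbp, which encodes the lipopolysaccharide-binding protein that delivers ligand toward TLR4, had the direction of Tlr4, with 11.7 ± 4.95 and 10.1 ± 5.07 CPM in CLPs and 41.4 ± 10.7 and 41.9 ± 14.8 CPM in MPPs (log2 fold change -1.93, adjusted p = 0.000287 from edgeR). The other two, named after their values were seen, were Cd180 at 0.73 and the TLR chaperone gene Hsp90b1 at 0.57 on the log2 scale.

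Of the other Toll-like receptors, 0 of 7 tested were called by edgeR, 1 had an unadjusted p under 0.05 and 1 was called by DESeq2. The IL-1 family receptors that use TRAF6 had 3 calls of 10. Il18rap and Il18r1, the chains of the interleukin 18 receptor, were higher in CLPs by 1.24 and 1.29 on the log2 scale (adjusted p = 1.36e-06 and 0.000234 from edgeR). Il1r1, the interleukin 1 receptor gene, was lower, with 88.6 ± 20.6 and 107 ± 12.2 CPM in CLPs and 165 ± 16.4 and 181 ± 9.16 CPM in MPPs (log2 fold change -0.83, adjusted p = 0.000326 from edgeR).

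Among adaptors and IRAK partners, 3 of 8 were called. Irak3, which encodes IRAK-M, a brake on IRAK signaling, was lower in CLPs at -1.52 (adjusted p = 0.000701 from edgeR). Pik3ap1, the adaptor BCAP, and Ticam2, the adaptor TRAM of TLR4, were higher at 0.50 (adjusted p = 0.029 from edgeR) and 0.67 (adjusted p = 0.0394 from edgeR).

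At the shared steps downstream of the receptors, edgeR called no gene of 3 lists, where 13.3% of all genes were called. None of the 6 other TRAF genes and none of the 15 genes of the ubiquitin and TAK1-IKK step was called by edgeR or DESeq2, with 1 each at an unadjusted p under 0.05. The 11 NF-kB subunits and inhibitors had 0 calls by edgeR, with 3 at an unadjusted p under 0.05 and 1 called by DESeq2. Of 13 negative regulators, 4 were called. Tnip3, an inhibitor of NF-kB signaling that binds A20, had 1.01 ± 0.467 and 5.24 ± 5.21 CPM in CLPs and 25.9 ± 7.10 and 31.9 ± 11.8 CPM in MPPs (log2 fold change -3.64, adjusted p = 3.58e-05 from edgeR). Tnip2, a related gene, was also lower at -0.92 (adjusted p = 0.0099 from edgeR), while Inpp5d, the lipid phosphatase gene SHIP1, was higher at 0.73 (adjusted p = 0.000637 from edgeR). The last was Dok3, higher at 1.07 and named after its values were seen.

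Of 6 IRF factors, 2 were called. Irf8, a transcription factor of monocytes, dendritic cells and lymphoid progenitors, had the largest rise of any list gene, from 71.2 ± 22.9 and 85.6 ± 12.3 CPM in MPPs to 848 ± 46.3 and 730 ± 63.8 CPM in CLPs (log2 fold change 3.33, adjusted p = 2.14e-09 from edgeR). The dendritic cell markers given above differed in the same direction as Irf8, Ly86 and Unc93b1, and their part in these values was not tested. Irf1 was lower at -0.44 (adjusted p = 0.0496 from edgeR). Of 18 inflammatory output genes, 11 passed the filter, and 3 of these were called, each lower in CLPs, where 7.30% of all genes were called lower. Ccl3, a chemokine gene, stood at -1.59 (adjusted p = 0.0015 from edgeR) and Ier3, an early response gene, at -1.87 (adjusted p = 0.00226 from edgeR). Cxcl10, an interferon-induced chemokine gene, had 1 count over the 6 CLP libraries and 0 to 29 counts in the MPP libraries, with 0 in the first replicate of 3MO MPP, and no fold is given for it.

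**Figure D5:**
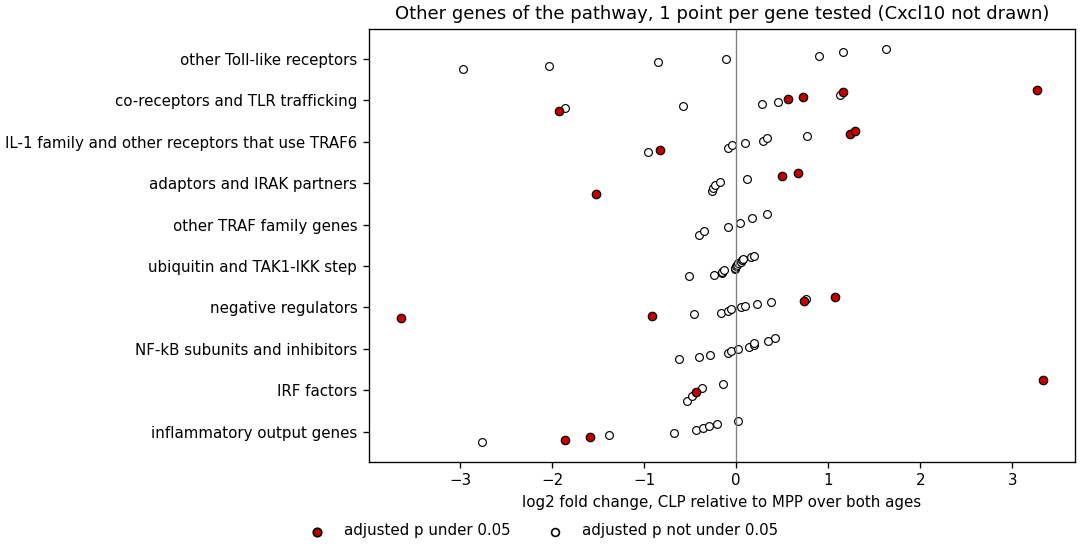
Log2 fold change in CLPs relative to MPPs over both ages for the tested genes of 10 pathway lists, with 1 point per gene and red points for an adjusted p under 0.05. Calls lie among co-receptors, IL-1 family receptors, adaptors, negative regulators, IRF factors and inflammatory output genes, and Cxcl10 is not drawn because it was near 0 counts in CLPs.

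The genes whose levels followed Tifab most closely over the 12 libraries, by Pearson correlation of log2 CPM, were Arid3a (r = 0.977), Actr3 (0.954), Rag1 (0.950), Marcks (0.949) and Tspan2 (0.939), of 13366 genes ranked. The libraries are of 4 groups with different means, so these values mostly describe the order of the groups and carry no p. Arid3a, a DNA-binding protein gene of the B lineage, stood at 74.8 ± 5.34, 55.7 ± 12.2, 38.5 ± 3.70 and 33.0 ± 2.13 CPM in 1MO CLP, 3MO CLP, 1MO MPP and 3MO MPP. Rag1, the recombinase gene of lymphocytes, stood at 263 ± 64.8, 96.5 ± 25.4, 12.3 ± 1.36 and 7.61 ± 2.36 CPM in the same order. Within the pathway, Tlr9 (0.897, rank 45), Tifa (0.793, rank 367) and Tlr7 (0.682, rank 837) were nearest to Tifab, and Irak4 (-0.709) was farthest.

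Of the 3 nearest genes on each side of Tifab on chromosome 13, 1 passed the filter. H2afy, the gene of the histone variant macroH2A1, ends 37.3 kb from Tifab and stood at 3053 ± 320 and 2937 ± 107 CPM in CLPs and at 2057 ± 101 and 2076 ± 287 CPM in MPPs of 1MO and 3MO. It was higher in CLPs by 0.54 on the log2 scale (adjusted p = 0.00135 from edgeR), and its age differences were -0.06 in CLPs and 0.01 in MPPs. The other five neighbours were near 0, with 11 counts over all libraries for Gm47071, 5 for Cxcl14 and 0 for Gm28760, 4930550C17Rik and Neurog1.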

How the data were processed

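RNA of Ly6d- CLPs and Flk2+ MPPs was measured in 12 libraries. The authors processed the reads with an nf-core pipeline (FastQC, UMI-tools, Trim Galore, STAR, Salmon, and DESeq2 for normalization; build mm10 per the labels) and deposited estimated counts for each gene that carry a correction for transcript length and none for depth. Column names matched the sample labels for all 12 columns. Estimated counts were rounded to whole numbers and totalled 8889083 to 20677785 per library, which limits the precision of genes near 0. The library kit marks strand, but the strand setting of the counting is not given in the sources used here. Tifa overlaps Ap1ar, Myd88 overlaps Acaa1a and Slc22a14 (the last at 0 counts), and Irak4 overlaps Twf1, so reads could be shared.

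Differences were tested with edgeR 4.0.16 (R 4.3.3, limma 3.58.1): filterByExpr, TMM and the quasi-likelihood test in one fit of the 4 groups, with Benjamini-Hochberg adjustment over 13367 genes at a threshold of 0.05. The procedure was tested on simulated data. Tables and plots used Python 3.11.15. Correlations used log2(CPM + 1). Exon lengths and coordinates are from GENCODE M21 on GRCm38. The members, lists and tests were chosen with earlier results of these data known. Genes named are the 10 members, the 3 called genes of each list with the smallest p between the cell types, list genes called for age, the 5 genes most correlated with Tifab and its 3 neighbours on each side. Alternatives were DESeq2 1.42.0 (size factors and Wald test), no filter, replicate blocks, fits of 1 cell type, longest transcripts, Spearman correlation and each library left out. Replicates were separate samples of a group, and p-values measure the spread between them.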

Additional observations from a re-analysis of the deposited data

How the results depend on the processing

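Over 17 alternatives, 4 to 6 of the 10 genes were called between the cell types over both ages, against 5 in the reported fit, while calls over all genes ran from 1377 to 2374 against 1772, and Tifab, Tifa, Tlr4 and Tlr9 were called in every one. At 1MO, DESeq2's Wald test called 4 of 9 genes, and leaving out 1 of the 6 libraries of 1MO gave 1 to 2. Of the fits that left out a 3MO library, 3 added a gene at 1MO, Tlr7 without the first or the second replicate of 3MO MPP and Tlr4 without the third replicate of 3MO CLP. Ranking by Spearman correlation kept 3 of the 5 genes most like Tifab. With lengths of the longest transcript, 8 of the 10 genes kept their place in the order of levels, and Tlr4 and Tlr9 changed places. The count of called pathway list genes, 20 in the reported fit, was 17 to 26 under the same alternatives, a check added after seeing the data.

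Small age differences changed sign. That of Irak4 in CLPs was 0.00 with DESeq2's size factors, DESeq2's Wald test and a fit of only the 6 CLP libraries. With 1 of the 6 libraries of the cell type left out, the log2 fold changes in CLPs ran from -0.13 to 0.15 for Irak4, -0.01 to 0.10 for Irak1, -0.12 to 0.45 for Myd88 and -0.10 to 0.03 for Traf6. In MPPs they ran from -0.22 to 0.19 for Tlr2, -0.14 to 0.63 for Tlr7, -0.69 to 0.02 for Tlr9 and -0.07 to 0.14 for Traf6. Other age differences in CLPs kept their sign in these fits but not their size, at -0.71 to -0.04 for Tlr9, -0.63 to -0.08 for Tlr2, -0.51 to -0.26 for Tlr7 and -0.41 to -0.09 for Tifa. The cause was not tested.

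Counts over all genes depended on the tool. For age in CLPs they were 10 in the reported fit, 46 without a filter, 65 with DESeq2, 4 with only the CLP libraries and 6 to 10 with 1 CLP library left out. For age in MPPs they were 3, 26 without a filter, 35 with DESeq2 and 3 to 5 with 1 MPP library left out. For the interaction they were 0, 6 without a filter, 7 with DESeq2 and 0 to 1 with 1 library left out. Between the cell types, DESeq2 called 1230 genes at 1MO against 719, and 1427 at 3MO against 812, while leaving out 1 of the 1MO libraries gave 460 to 623 at 1MO.

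No source states that equal replicate numbers share an experiment or mouse. The 18 correlations of deviations from the group means between same-numbered libraries ran from -0.0339 to 0.213 (median 0.0668, 5 over 0.1), and the 36 between other numbers from -0.238 to 0.139 (median -0.0304, 1 over 0.1). Since not every same-numbered pair was over 0.1, the numbers were not taken to pair the samples, though a shared source cannot be told from these values. The same-numbered library had the highest correlation of its group in 22 of 36 cases, each a choice among 3 libraries. The column names also number the libraries of one replicate number in sequence. Both are hints of a shared source, and neither is a statement of the design. With the replicate block, 5 of the 10 genes were called between the cell types over both ages and 3 of 9 at 1MO, where Tlr7 was added (adjusted p = 0.0198 from edgeR, and 0.0225 with a block of age and number). Tlr7 over both ages had an adjusted p of 0.00763 with the replicate block and 0.00784 with the block of age and number, both from edgeR.

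Counting error weighs most on Tlr2, Tlr4 and Tlr9, which had fewer counts than the other 7 genes. An effect of depth was not tested.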
